A study of Mus musculus with 13 samples.

Results

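TRAV7 is a family of T cell receptor (TCR) α variable genes, and its clonotypes were examined in the TCRα repertoires of rescued regulatory T (Treg) cells. The members were all functional clonotype rows, that is rows whose CDR3 amino-acid sequence held only letters, with a V gene carrying the number 7 directly after TRAV (TRAV7-x, TRAV7D-x and TRAV7N-x). This gave 14771 of 78521 functional rows over 13 samples, where a row joins 1 V gene, 1 J gene and 1 nucleotide sequence of CDR3 in 1 sample. All samples came from C57BL/6 male mice of the genotype Foxp3LSL/yCd4creERT2. In these mice a stop cassette flanked by loxP sites silences Foxp3, and an inducible Cre expressed from the Cd4 locus removes it after 4-hydroxytamoxifen, given once on postnatal day 14. Every sample therefore carried both alleles and received the drug, and no untreated group was part of the TCR data. Rescued cells (TCRβ+CD4+GFP+Thy1.1-) were taken from spleen and lymph nodes together and sorted at 1.5 months (age 8 weeks, n = 2), 3 months (age 3.5 months, n = 4), 5 months (age 5.5 months, n = 2) and 7 months (age 7.5 months, n = 5) after treatment. The labels do not say whether each sample was 1 mouse, so p-values measure the spread between these samples, which may be technical.

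The α chain is assembled in developing thymocytes by joining 1 of many V genes to 1 of many J genes. Bases are trimmed from both ends and untemplated bases are added at the junction, which becomes CDR3, the loop that contacts the peptide most closely. A chromosome can rearrange its α locus repeatedly, each time bringing a V gene further from the J cluster to a J gene further from the V genes. In C57BL/6 mice part of the V region was copied, and TRAV7 genes carry a D or an N in their names where they lie in a copied block.

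Total counts ranged from 509818 to 936831 per sample, and functional counts from 477052 to 882170. TRAV7 contributed 921 to 1500 clonotypes and 79071 to 171041 counts per sample. A count of 3 corresponded to at most 0.000629% of a sample's functional counts, and whether a count was a read or a molecule was not stated. Intervals given for single shares cover counting error only. As a check of the sort, V and J pairs of NKT type (TRAV11 or TRAV11D with TRAJ18) had 28 rows in 11 samples. Pairs of MAIT type (TRAV1 with TRAJ33) had 7 rows in 5 samples, and both types had at most 0.128% of a sample's counts. The pairs were taken by gene alone, without regard to CDR3, so these rows need not be the invariant chains of those cells. Expression markers of Treg cells are not part of these tables. Among 78 pairs of samples, 3 months replicate 4 shared most TRAV7 nucleotide clonotypes with 5 months replicate 1 (Jaccard index 7.28%) and with 1.5 months replicate 1 (6.77%), and the next pair reached 4.49%.

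Many rows were close copies of larger ones. In TRAV7, 1414 of 14771 rows (9.57%) differed from a larger clonotype of the same sample by 1 base in the J-encoded part, where only the larger one matched the germline J gene. In the other V families the share was 9.04% of 63750 rows. The smaller row had a median of 0.103 of the larger row's counts in TRAV7, and these rows held 1.67% of TRAV7 counts. Per the study's methods, the smaller of 2 close clonotypes had already been discarded below a set size ratio. These shares and ratios therefore describe the rows that were left. Of the 1414 rows, 1168 (82.6%) had G in place of a germline T, and 1109 (78.4%) used TRAJ15, TRAJ13, TRAJ21 or TRAJ35. In TRAJ15 the substitution T20G, counted from the first base of the J gene, accounted for 348 rows in all 13 samples with a median count ratio of 0.0808. TRAJ13 had T15G in 310 rows (ratio 0.178), TRAJ21 had T16G in 285 rows (ratio 0.0811) and TRAJ35 had T12G in 51 rows (ratio 0.306). Where these rows came from was not tested. Every count of clonotypes below includes them, and where a comparison or a rank given here was found to change without them, that is stated.

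The germline ends of the TRAV7 genes, where CDR3 begins, are shown because CDR3s begin in them. Capitals mark bases that differ from TRAV7D-2 at the same position or lie beyond its end, in sequences from the GENCODE annotation of GRCm38.
TRAV7D-2: tgtgcagcaagca
TRAV7-3: tgtgcagTGagca
TRAV7-4: tgtgcagcTagTGAGCA
TRAV7N-4: tgtgcagTTagTGAGCA
The end shown for TRAV7-3 was shared by TRAV7-1, TRAV7-5, TRAV7-6, TRAV7D-3, TRAV7D-5, TRAV7N-5 and TRAV7N-6, and that of TRAV7-4 by TRAV7D-4. In TRAV7-4 rows 97.3% of CDR3s began with CAA and 69.0% with CAAS. In TRAV7D-2 rows the shares were 96.1% and 60.3%. The genes with the TRAV7-3 end had no more than 3.90% CAA, and 78.4% to 88.9% of their CDR3s began with CAV (TRAV7N-5, without rows, left out). TRAV7N-4 began with CAV in 99.0% of rows. TRAV7-2 shares the end of TRAV7D-2 except its last base, but of its 68 rows 13.2% began with CAA and none with CAAS or CAV, with 4.32 inserted bases on average. Over the family 54.1% ± 1.41 of clonotypes began with CAA and 38.9% ± 1.48 with CAV, against 36.6% ± 1.08 and 12.2% ± 0.614 in the other V families (mean ± SD over 13 samples).

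The clonotypes named below were, at each time point, the largest of the family, with the 5 CDR3 amino-acid sequences of the widest occurrence and the 3 encoded by most nucleotide sequences. Each CDR3 is called here by its first 5 residues and its J gene. Nucleotide sequences of these CDR3s are shown because they carry the pattern of sharing, with capitals for bases assigned to neither V nor J. The V gene and the capitals are those of the row with most counts for each sequence. The same bases could be called with other TRAV7 genes too, since CAVSR-TRAJ31 had 8 V genes over 4 nucleotide sequences.
CAASR-TRAJ12, TRAV7D-2 with TRAJ12: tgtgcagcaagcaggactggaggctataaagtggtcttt
CAASD-TRAJ30, TRAV7-4 with TRAJ30: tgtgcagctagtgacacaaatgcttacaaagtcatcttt
CAASD-TRAJ30, TRAV7D-2 with TRAJ30: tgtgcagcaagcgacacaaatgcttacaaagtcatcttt
CAVSR-TRAJ31, TRAV7-5 with TRAJ31: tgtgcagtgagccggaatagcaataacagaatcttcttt
CAVAS-TRAJ22, TRAV7-5 with TRAJ22: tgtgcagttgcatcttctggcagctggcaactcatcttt
CAAAS-TRAJ22, TRAV7D-2 with TRAJ22: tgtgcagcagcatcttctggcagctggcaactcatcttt
CAASY-TRAJ15, TRAV7D-2 with TRAJ15: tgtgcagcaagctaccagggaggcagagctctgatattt
CAASY-TRAJ15, the same with T20G of TRAJ15: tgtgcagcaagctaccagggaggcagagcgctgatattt
CAARG-TRAJ15, TRAV7D-2 with TRAJ15: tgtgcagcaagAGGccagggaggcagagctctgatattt
CAASE-TRAJ17, TRAV7-4 with TRAJ17: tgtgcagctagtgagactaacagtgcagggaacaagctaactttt
CAASD-TRAJ17, TRAV7-4 with TRAJ17: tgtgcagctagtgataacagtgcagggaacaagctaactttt
CAASL-TRAJ13, TRAV7D-2 with TRAJ13: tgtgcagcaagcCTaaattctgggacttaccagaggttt
The 4 CDR3s found in all 13 samples, and CAAAS-TRAJ22, were encoded in their most widespread form without any inserted base, as assigned in its row with most counts. CAAAS-TRAJ22 was 1 of 9 CDR3s found in 11 samples and had the highest mean share of counts among those.

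TRAV7 made up 18.8% ± 0.703 of functional clonotypes (mean ± SD, n = 13), with a lowest value of 17.4% (7 months replicate 5), a median of 19.2% and a highest value of 19.7% (1.5 months replicate 2). By counts the share was 18.3% ± 1.69, from 14.9% to 20.6%. Of 13 genes in the annotation, 12 had functional rows. TRAV7D-2 (4032 rows, 27.3% of the family) and TRAV7-4 (4028 rows, 27.3%) were the most used. Next came TRAV7-5 (1505 rows) and TRAV7-3 (1364 rows), and the other 8 genes had 743 rows or fewer each. TRAV7N-5 had no functional row.

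TRAV7D-2 took 5.16% ± 0.427 of all functional clonotypes (4.24% to 5.76%) and TRAV7-4 took 5.11% ± 0.424 (4.50% to 5.80%), and their ranges overlapped almost fully. TRAV7-5 (1.92% ± 0.161, from 1.59% to 2.20%) and TRAV7-3 (1.73% ± 0.241, from 1.42% to 2.25%) also overlapped, and both lay below every value of TRAV7D-2 and TRAV7-4. The other 6 genes with at least 100 rows had means of 0.669% (TRAV7-6) to 0.951% (TRAV7N-6), with overlapping ranges. TRAV7-2 had 68 rows (2 to 11 per sample) and TRAV7D-4 had 10 rows (0 to 3 per sample).

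These levels can depend on how reads were split between copies. Over the V exon, TRAV7D-5 and TRAV7N-5 were identical, as were TRAV7-2 and TRAV7D-2, while TRAV7-4 and TRAV7D-4 differed by 1 base and TRAV7-3 and TRAV7D-3 by 2. Calls within those pairs are therefore uncertain. With copies of the same number added up, TRAV7-4 had 4640 rows (31.4%), TRAV7-2 had 4100 (27.8%), TRAV7-5 had 2170 (14.7%), TRAV7-3 had 2030 (13.7%), TRAV7-6 had 1267 (8.58%) and TRAV7-1 had 564 (3.82%). The pair TRAV7-6 and TRAV7N-6 was 96.8% identical, with 9 mismatches, and TRAV7-5 and TRAV7D-5 were 95.1% identical, with 14.

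**Figure D1:**
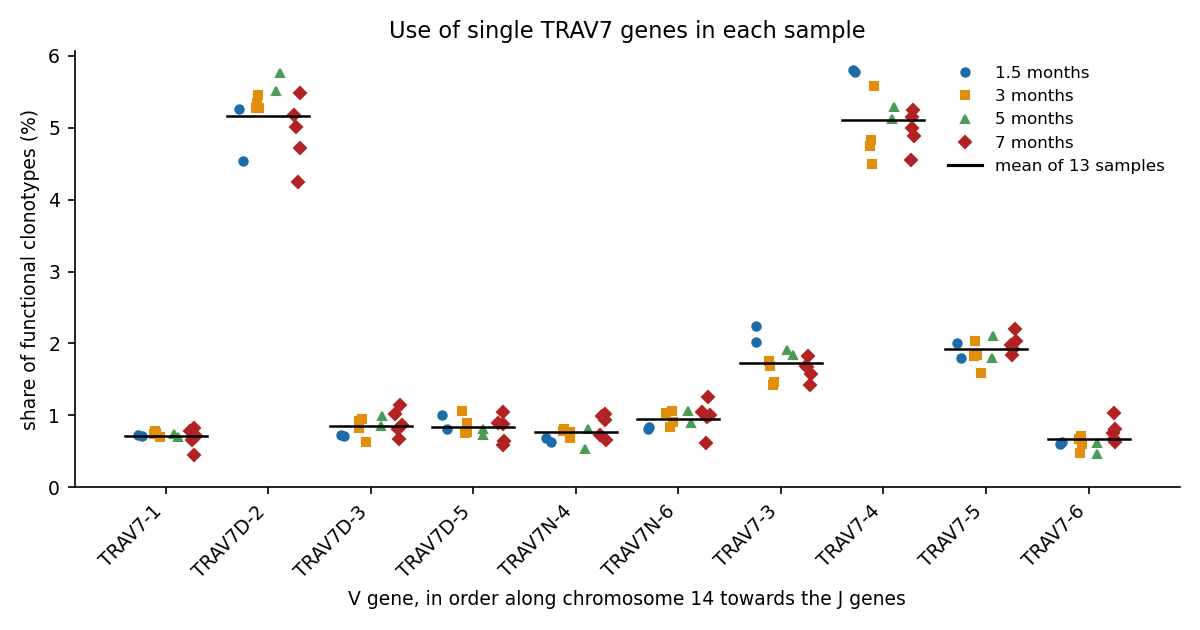
Share of functional clonotypes (vertical axis, %) for the 10 TRAV7 genes with at least 100 rows, ordered along chromosome 14 towards the J genes. Points are samples coloured by time point and black lines are means over 13 samples. TRAV7D-2 and TRAV7-4 lie between 4.24% and 5.80%, above all other genes.

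The genes lie on the plus strand of chromosome 14 (GRCm38). TRAV7-1 (chr14:52654817-52655328) is the furthest from the J cluster, TRAV7D-2 lies at chr14:52683964-52684472, TRAV7-4 at chr14:53461099-53461738, TRAV7N-6 at chr14:53324632-53325208 and TRAV7-6 (chr14:53716716-53717291) is the nearest to it. The J genes tested run from TRAJ58 (chr14:54157280-54157342) on the V side to TRAJ2 (chr14:54217836-54217901).

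Early and late J genes were used unequally by these V genes. TRAV7 was joined less to J genes near the V region than the other V families combined, but was not the lowest. With 11.8% of clonotypes at TRAJ41 or a higher number it ranked 15th of 17 families, above TRAV8 (10.9%) and TRAV1 (0.831%) and below TRAV10 (13.4%), while TRAV17, TRAV19 and TRAV21 had 68.0% to 85.0%. In an edgeR quasi-likelihood test on clonotype numbers with the sample as a block, 28 of 43 J genes (65.1% called at adjusted p under 0.05) differed, 15 higher in TRAV7 (34.9%) and 13 lower (30.2%). The median over all 43 was -0.02 on the log2 scale. With so many J genes called, the order along the cluster describes the pattern better than the count. The 8 J genes from TRAJ58 to TRAJ48 were all lower, and the 4 from TRAJ6 to TRAJ2 were all higher.

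TRAJ58 had the lowest relative use, with 0.203% ± 0.137 of TRAV7 clonotypes against 0.982% ± 0.151 of the others (log2 fold change -2.31, SE 0.22, edgeR adjusted p = 1.83e-14, lower in 13 of 13 samples). It was followed by TRAJ56 (0.454% against 1.79%, -2.0), TRAJ57 (0.470% against 1.73%, -1.88), TRAJ53 (0.369% against 1.02%, -1.49) and TRAJ50 (0.481% against 1.27%, -1.44). For these 4 the SE was 0.16 to 0.21 and each was lower in all 13 samples. In none of these 5 J genes did TRAV7 exceed the other families in any sample.

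The highest relative uses were smaller in size. TRAJ28 had 0.969% ± 0.373 of TRAV7 clonotypes against 0.652% ± 0.103 (log2 fold change 0.57, SE 0.15, edgeR adjusted p = 0.000620, higher in 10 of 13 samples). TRAJ6 had 2.78% against 1.96% (0.50) and TRAJ18 had 2.91% against 2.06% (0.50), each higher in 12 samples. TRAJ30 had 3.61% against 2.61% (0.48, 12 samples) and TRAJ2 had 0.916% against 0.651% (0.47, 10 samples). Under DESeq2 the calls of TRAJ28 (adjusted p = 0.116) and TRAJ2 (0.115) were lost and 9 J genes were called higher. TRAJ15, the most used J gene of the family at 6.78% ± 1.32 of clonotypes against 5.45% ± 0.553, also counted among those higher in TRAV7 (0.30, with and without the 1-base J copies). Its first place rested on those copies, since without them it had 616 rows and ranked 6th, behind TRAJ31 with 765.

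The 1 TRAV7 gene next to the J cluster departed from its family. In TRAV7-6, 54.0% of 524 rows used TRAJ41 or a higher number, the V side of the cluster, and sample values ran from 40.0% to 66.7%. Its copy TRAV7N-6, further away, had 5.38% of 743 rows (1.79% to 8.06%). TRAV7-5, the second nearest, had 18.9% (14.4% to 26.0%), and the other 7 genes with at least 100 rows had 6.74% to 14.6%. Every sample of TRAV7-6 lay above every sample of those 9 genes, the highest of which reached 26.0%. TRAV7-6 made up 3.55% of TRAV7 rows but 117 of the 426 rows (27.5%) with TRAJ50 or a higher number. At the other end, 9.16% of TRAV7-6 rows used TRAJ2 to TRAJ23, against 66.9% in TRAV7N-6 and 69.8% in TRAV7N-4. Along the chromosome the order was not strict, since TRAV7D-3 (14.6%) lay above TRAV7-3 (7.33%), which is nearer to the J genes.

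**Figure D2:**
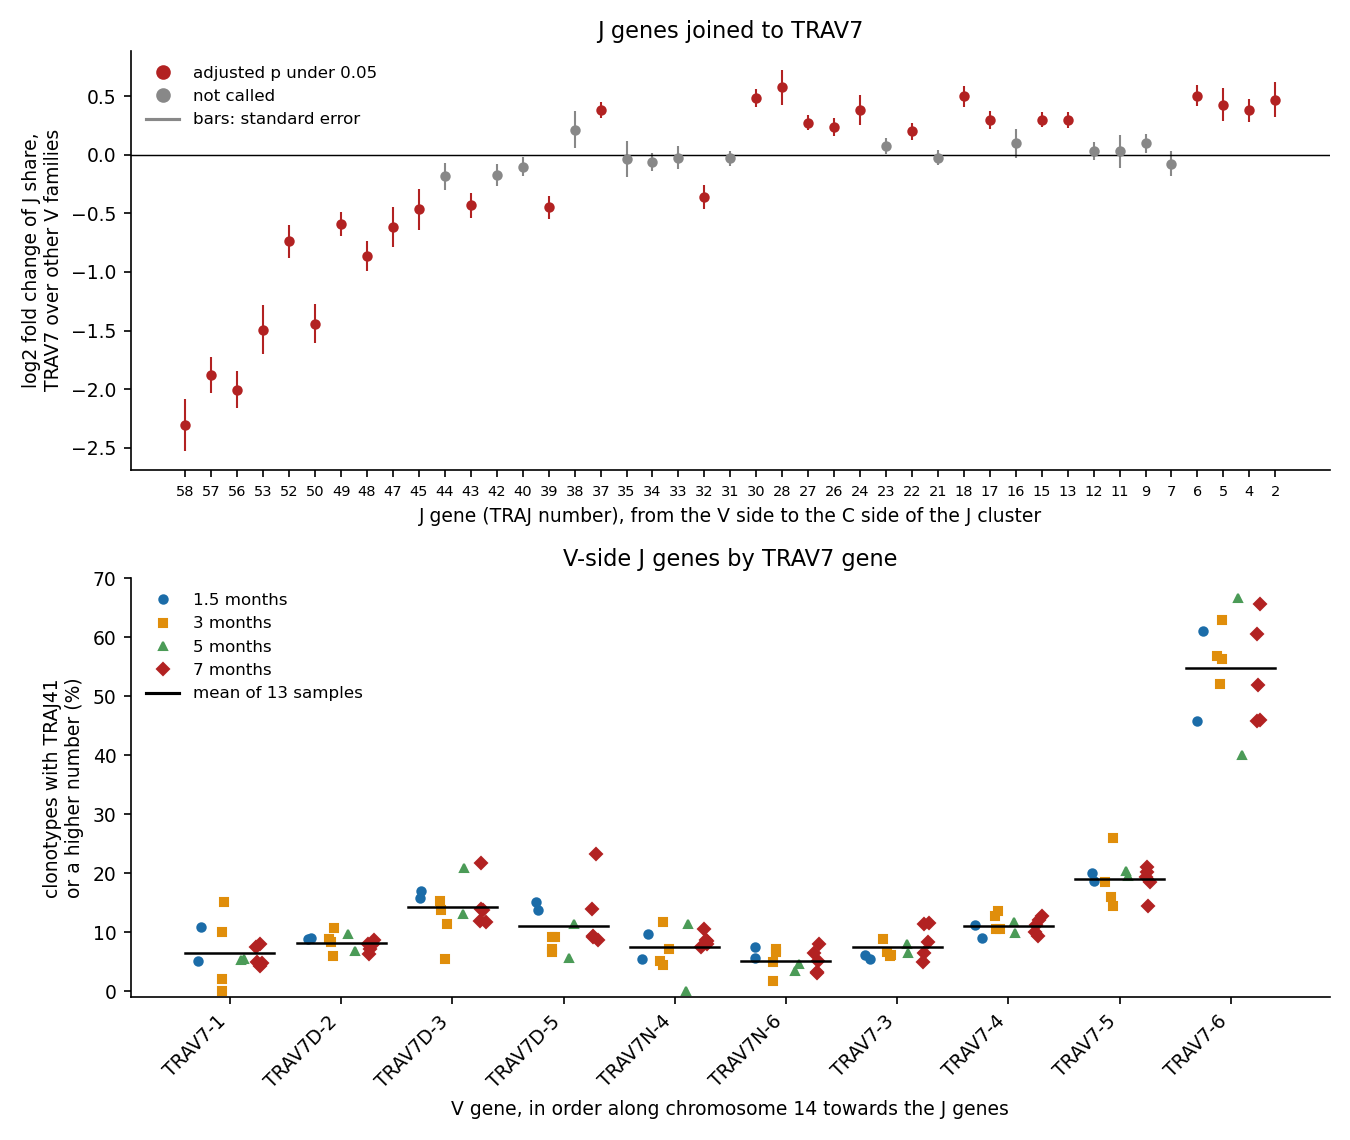
Upper panel, log2 fold change of each J gene's share in TRAV7 over the other V families with its standard error, from the V side (58) to the C side (2), red where the adjusted p was under 0.05. Lower panel, share of clonotypes with TRAJ41 or a higher number for each TRAV7 gene and sample, in which TRAV7-6 spans 40.0% to 66.7%.

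Functional and non-functional rows differed in V gene use. Non-functional rows carry a frameshift or stop codon and were not selected on the protein they encode. TRAV7 had 1392 of them, 1337 with a frameshift and 55 with a stop codon alone. They made up 8.62% ± 1.13 of TRAV7 rows against 14.1% ± 0.646 in the other families (lower in 13 of 13 samples). In this share TRAV7 ranked 15th of 17 families, above TRAV14 (7.18%) and TRAV17 (6.50%), and the highest was TRAV1 (39.5%). Over all V genes, 46 of 71 (64.8%) were called by edgeR, 26 higher among functional rows (36.6%) and 20 lower (28.2%). Of the 10 TRAV7 genes tested, 6 were called, all higher among functional rows, and none was called lower. The median log2 fold change was 0.60 over the 10 genes and 0.12 over all 71.

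TRAV7D-2 had the largest change of the 10, with 4032 functional and 229 non-functional rows (log2 fold change 1.34, SE 0.11, edgeR adjusted p = 1.12e-31). TRAV7D-3 followed at 1.05 and TRAV7-3 at 1.04, then TRAV7N-6 at 0.93 and TRAV7-6 at 0.91. TRAV7-4 was called at 0.29 (SE 0.09, adjusted p = 0.00257), but not without the 1-base J copies described above (0.04, adjusted p = 0.716). TRAV7-5 (0.25, adjusted p = 0.0995) was called without them (0.30, adjusted p = 0.0424), without the filter on low numbers (0.36, adjusted p = 0.0240) and without 7 months replicate 5 (0.34, adjusted p = 0.0430). TRAV7N-4 (0.18), TRAV7-1 (0.15) and TRAV7D-5 (-0.24) did not pass, and their values were not stable. Single samples left out gave 0.070 to 0.30, 0.054 to 0.29 and -0.32 to -0.15, and other settings 0.0041 to 0.29, -0.017 to 0.25 and -0.31 to -0.14. Among these genes the non-functional share ran from 5.37% of rows in TRAV7D-2 to 14.4% in TRAV7D-5.

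CDR3 length was close to that of the other families. The mean was 13.50 ± 0.04 residues in TRAV7 and 13.49 ± 0.02 in the other V families, a difference of 0.009 ± 0.038 (SD of differences, n = 13, exact sign-change test, two-sided, adjusted p = 0.501 over 12 measures). Lengths of 13 residues (32.7% of rows) and 14 residues (30.7%) were the most common. Inserted bases averaged 2.19 ± 0.09 against 2.17 ± 0.05 (adjusted p = 0.501 in the same test). Weighted by counts they averaged 1.99 against 1.90, higher in 10 of 13 samples (exact adjusted p = 0.0552). Junctions without any inserted base took 29.5% ± 2.02 in TRAV7 and 31.2% ± 0.958 in the others. This was lower in 11 of 13 samples (difference -1.76 percentage points, exact p = 0.00854, adjusted p = 0.0146). Weighted by counts the difference was -3.23 percentage points (exact adjusted p = 0.0160). With the other families weighted to the J genes that TRAV7 used in the same sample, TRAV7 CDR3s were longer by 0.037 residues (exact adjusted p = 0.00879), an alternative chosen after seeing the data. Among 17 families with enough rows, TRAV7 ranked 11th for length and 6th for inserted bases.

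The charge of the loop differed. Net charge, the number of K and R minus the number of D and E, averaged 0.863 ± 0.030 per CDR3 in TRAV7 and 0.678 ± 0.013 in the other V families, higher in 13 of 13 samples (exact p = 0.000244, the smallest that 13 samples allow, adjusted p = 0.000488). Within the family it was lowest in TRAV7-4 (0.581) and TRAV7N-4 (0.600), whose germline ends read into E after CAAS or CAVS, and 0.943 to 1.02 in the other 8 genes with at least 100 rows. Hydrophobic residues at both positions 6 and 7 were found in 0.665% ± 0.177 of TRAV7 CDR3s and 1.03% ± 0.138 of the others (lower in 13 of 13 samples, same exact p). Without the 1-base J copies TRAV7 was higher in 2 of 13 samples, and the difference still passed (exact adjusted p = 0.00244). Neither trait was extreme among the 17 families, in which TRAV7 ranked 8th for charge and 10th for the hydrophobic pair.

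Clone sizes of TRAV7 did not differ from those of other families beyond the spread. A TRAV7 clonotype had 96.6 ± 25.8 counts on average and another clonotype 99.2 ± 20.5 (difference -2.62 ± 12.3, exact adjusted p = 0.501, and -4.38 to -0.593 over single samples left out, without 3 months replicate 1 and without 5 months replicate 2). The Gini coefficient, 0 for equal clone sizes, was 0.628 ± 0.044 against 0.636 ± 0.048 (exact adjusted p = 0.327, and 0.0432 without 3 months replicate 3). Clonotypes above 0.1% of functional counts made up 1.62% ± 0.452 of TRAV7 and 1.63% ± 0.562 of the others (exact adjusted p = 0.954).

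**Figure D3:**
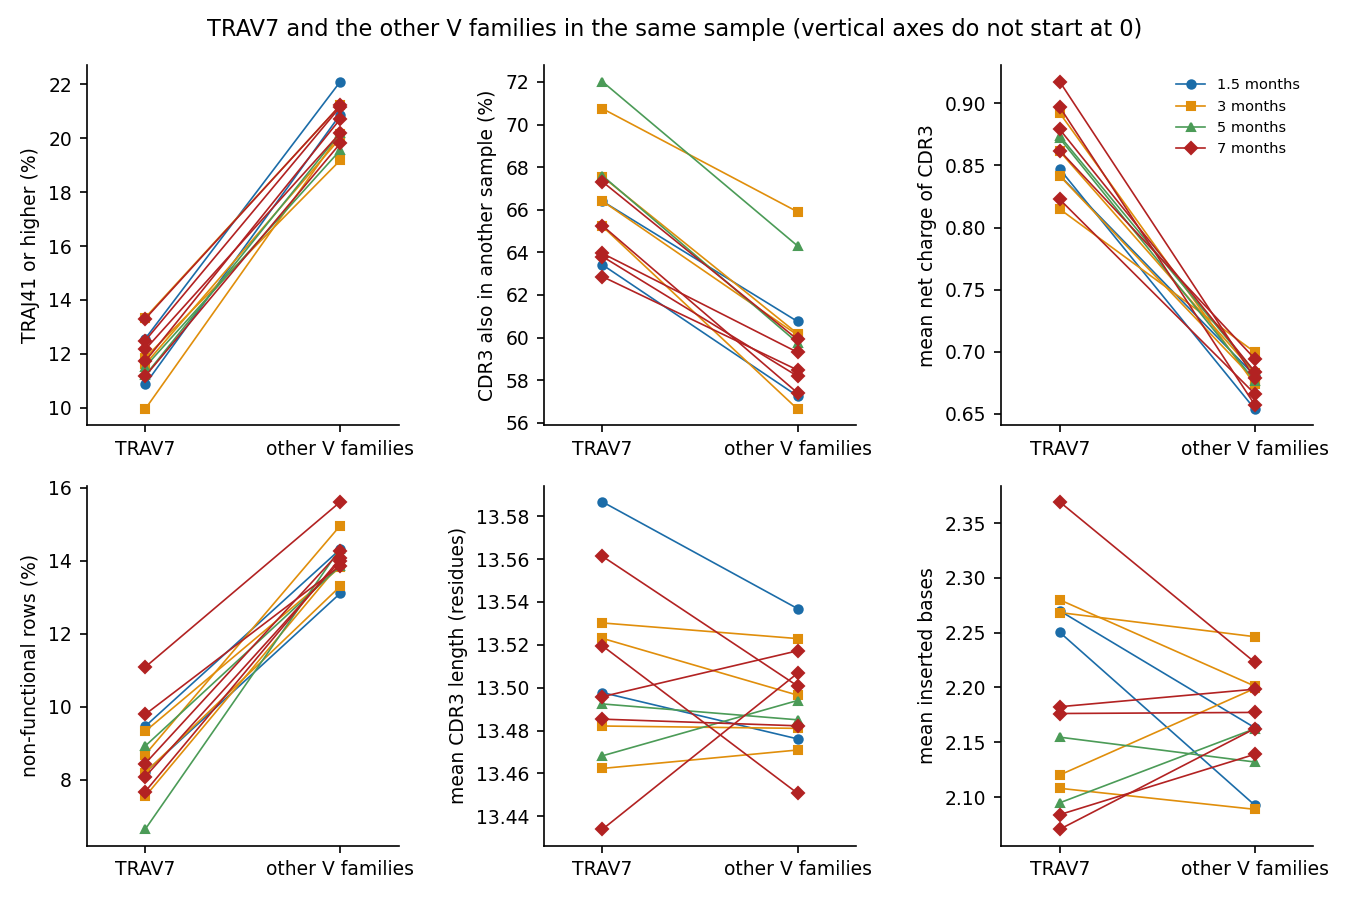
Values in TRAV7 and in the other V families, joined by a line for each of 13 samples coloured by time point, with vertical axes that do not start at 0. Lines run in 1 direction in all 13 samples for TRAJ41 or higher, sharing, charge and non-functional rows, and in both directions for length and inserted bases.

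Of the largest TRAV7 clones of the 4 time points, 3 were found in at most 2 other samples and 1 in 6. At 1.5 months the most abundant was CAASD-TRAJ30 with TRAV7D-2 in replicate 1, with 2026 counts (0.366%, Wilson 95% interval 0.350% to 0.382%), and it was present in 6 other samples. At 3 months it was CAASE-TRAJ17 in replicate 3, with 7192 counts (1.15%, 1.13% to 1.18%), the largest clone of that sample. It was not found in any of the other 12 samples. At 5 months it was CAASD-TRAJ17 in replicate 1, with 4017 counts (0.739%, 0.716% to 0.762%), and 1 other sample had a single count. At 7 months it was CAASL-TRAJ13 in replicate 4, with 6559 counts (1.37%, 1.34% to 1.41%), and at most 76 counts in 2 other samples.

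TRAV7 CDR3s recurred in other samples more often than those of other families. On average 66.3% ± 2.75 of TRAV7 clonotypes had a CDR3 amino-acid sequence found in at least 1 other sample, against 59.9% ± 2.67 in the other V families. The difference of 6.49 ± 1.39 percentage points was positive in 13 of 13 samples (exact p = 0.000244, adjusted p = 0.000488). TRAV7 ranked 3rd of 17 families in this share, below TRAV14 (72.6%) and TRAV4 (66.6%). TRAV10 (66.3%), TRAV5 (65.4%) and TRAV3 (64.6%) were close to it, and the lowest was TRAV15 (35.8%). A match counted whichever V gene the other sample used, and 3058 of 8797 TRAV7 CDR3s (34.8%) also occurred with another V family. Each amino-acid sequence was encoded on average by 1.08 nucleotide clonotypes per sample in TRAV7, the 3rd highest of the 17 families, which ran from 1.02 (TRAV21) to 1.09 (TRAV14). The other V families pooled had 1.10 ± 0.013 against 1.08 ± 0.012 in TRAV7, lower in 13 of 13 samples (exact sign-change p = 0.000244, adjusted p = 0.000488). In the pool one CDR3 can join several V families, and even the highest single family (TRAV14) lay below it. This test therefore cannot set TRAV7 apart from other single families.

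Within TRAV7, 6399 of 8797 distinct CDR3 proteins (72.7%) occurred in 1 sample with a TRAV7 gene, 125 in 7 or more samples and 4 in all 13. The 125 held 16.0% ± 1.97 of TRAV7 counts per sample (13.4% to 19.4%). Rows of CDR3s found in 1 sample had 2.91 inserted bases on average. Those found in 2 to 3 samples had 2.05, in 4 to 6 samples 1.27 and in 7 to 13 samples 0.796. Over the same classes the share of rows without inserted bases was 20.5%, 26.3%, 41.2% and 60.5%, and mean length was 13.67, 13.54, 13.26 and 13.03 residues. TRAJ41 or a higher number was used by 14.8%, 12.3%, 8.28% and 2.41% of rows, and the median count was 44, 53, 63 and 82. These are descriptions over rows that share samples, and whether clone size affects how readily a CDR3 is found again was not tested.

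**Figure D4:**
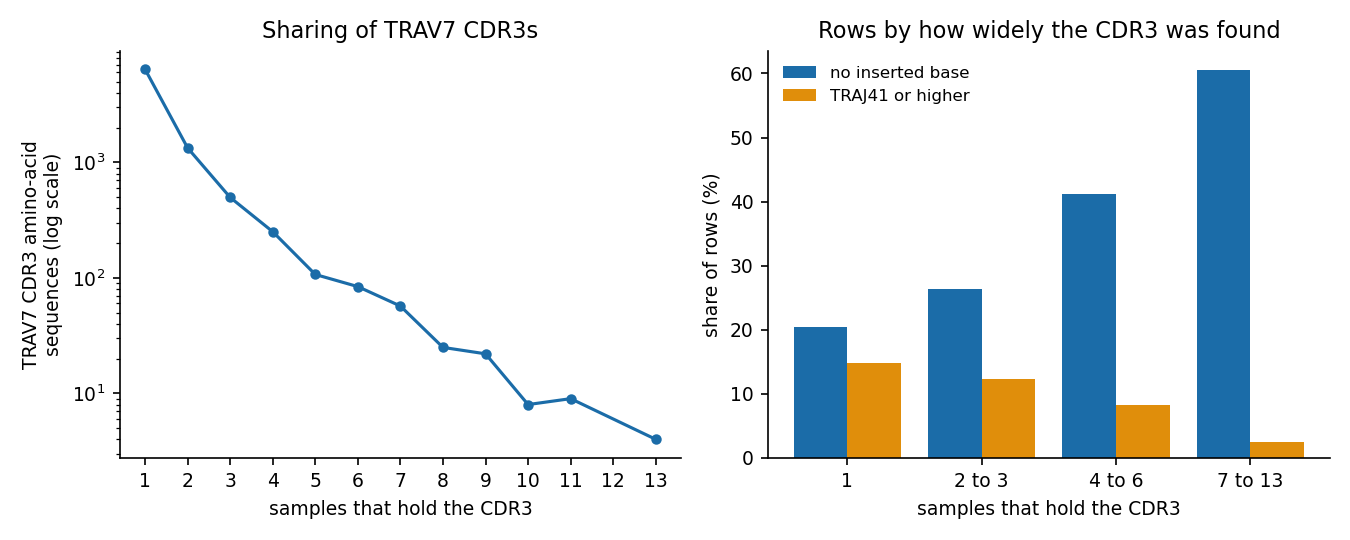
Left, number of TRAV7 CDR3 amino-acid sequences (log axis) by the number of samples that hold them, from 6399 in 1 sample to 4 in all 13, with none in 12. Right, share of rows without inserted bases (blue) and with TRAJ41 or a higher number (orange) by how many samples held the CDR3, which change from 20.5% to 60.5% and from 14.8% to 2.41%.

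CAASR-TRAJ12 was found in all 13 samples, with a lowest share of 0.00470% (7 months replicate 5), a median of 0.0845% and a highest share of 0.885% (3 months replicate 1) of functional counts. The form from TRAV7D-2 shown above lacked inserted bases, was found in 12 samples and held 60.3% of its counts, while 6 other nucleotide sequences encoded the rest. CAASD-TRAJ30 ranged from 0.00755% to 0.410% with a median of 0.133%. Its form from TRAV7-4 was found in 10 samples and that from TRAV7D-2 in 7, so germline ends of 2 V genes led to 1 protein sequence. At 7 months CAASR-TRAJ12 ran from 0.00470% to 0.430% and overlapped every other time point. CAASD-TRAJ30 had 0.372% and 0.138% in the 1.5-month samples, above all 7-month samples (0.00755% to 0.133%), while 3-month and 5-month samples lay between 0.0773% and 0.410%.

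CAVSR-TRAJ31 (0.0117% to 0.189%) was called with 8 TRAV7 genes, and CAVAS-TRAJ22 (0.00910% to 0.138%) with 6. Each had 4 nucleotide sequences, so some sequences were called with more than 1 gene. Both CDR3s occurred in all 13 samples. CAAAS-TRAJ22, which differs from CAVAS-TRAJ22 by 1 residue, was found in 11 samples and at up to 0.241%. It also had 33 rows with another V family, more than its 19 TRAV7 rows.

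The CDR3s encoded by most nucleotide sequences all used TRAJ15. CAASY-TRAJ15 had 16 nucleotide sequences in 11 samples, CAARG-TRAJ15 had 13 in 7 samples and CAARY-TRAJ15 had 9 in 6 samples, a count that 2 other CDR3s with TRAJ15 also reached. Their highest shares were 0.111%, 0.0518% and 0.0723%. Without the 1-base J copies, such as the T20G form printed above, 8, 7 and 5 sequences were left. CAASY-TRAJ15 was still first, and CAARG-TRAJ15 and CAASR-TRAJ12 were 2 of 9 CDR3s tied at 7. Over all rows, CAASY-TRAJ15 and CAARY-TRAJ15 also had more rows with another V family (36 and 22) than with TRAV7 (29 and 13).

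Whether TRAV7 changed with time after treatment was asked of its share, its genes, its J partners and its diversity. The family's share of clonotypes was 19.2% ± 0.691 at 1.5 months, 18.6% ± 0.713 at 3 months, 19.4% ± 0.226 at 5 months and 18.6% ± 0.778 at 7 months (mean ± SD). edgeR gave log2 fold changes of -0.05 (3 against 1.5 months, adjusted p = 0.707), 0.01 (5 against 1.5 months, 0.889), -0.08 (7 against 1.5 months, 0.407) and -0.03 (7 against 3 months, 0.898). None was called on leaving out single samples, which moved the first from -0.079 to -0.021 and the third from -0.11 to -0.035. Of 19 V families, 5.26% were called in the first of these comparisons and 0 in the others. Weighted by counts, 7 against 3 months had an edgeR log2 fold change of -0.36 (adjusted p = 0.0183), where 3-month samples ranged from 18.9% to 20.6% of counts and 7-month samples from 14.9% to 18.5%. That value depended on the scaling. With library totals in place of TMM it was -0.20 (edgeR adjusted p = 0.304), the size the mean shares of 19.9% and 17.4% give, and with DESeq2 it was -0.30 (adjusted p = 0.0429), both chosen after seeing the data.

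Among single V genes 0 of 90 passed in any of the 4 comparisons (0% called), in edgeR, and 0 of the 10 TRAV7 genes passed in DESeq2. At an unadjusted p under 0.05 there were 2 TRAV7 genes in 3 against 1.5 months and 2 in 7 against 1.5 months, TRAV7-3 and TRAV7-4 in both, and 0 in the others. Over all 90 genes there were 10 and 6 in the same comparisons. TRAV7-3 had the smallest p of the family. It took 2.25% and 2.03% of clonotypes at 1.5 months, 1.42% to 1.76% at 3 months, 1.84% and 1.91% at 5 months and 1.42% to 1.83% at 7 months. Both 1.5-month samples lay above all others. The edgeR log2 fold change was -0.45 (SE 0.14, adjusted p = 0.0922) for 3 and -0.40 (SE 0.13, adjusted p = 0.181) for 7 against 1.5 months. With a minimum of 2 counts per clonotype the former was -0.56 (adjusted p = 0.0302), and with the replicate block it was -0.48 (adjusted p = 0.0446), both called. With copies of the same number merged, TRAV7-3 and TRAV7D-3 together had -0.26 (edgeR adjusted p = 0.285) for 3 and -0.19 (adjusted p = 0.508) for 7 against 1.5 months. TRAV7D-3, whose split from TRAV7-3 is uncertain, had means of 0.718%, 0.831%, 0.924% and 0.903% from 1.5 to 7 months. TRAV7-4 had 5.80% and 5.77% at 1.5 months against 4.50% to 5.57% in all later samples (edgeR log2 fold change -0.26 at 3 months, adjusted p = 0.202, and -0.32 with adjusted p = 0.0413 without 3 months replicate 3). For 5 against 1.5 months TRAV7D-2 had the smallest p (0.19, adjusted p = 0.613) and for 7 against 3 months TRAV7-6 (0.32, adjusted p = 0.865).

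Of 283 pairs of V family and J gene, 37 involved TRAV7 and 0 of these were called by edgeR or DESeq2 in any comparison, with 0% to 0.353% of all pairs called. At an unadjusted p under 0.05 there were 1, 1, 1 and 4 of the 37 TRAV7 pairs in the 4 comparisons, and 11, 10, 13 and 10 of all 283. The smallest p values belonged to TRAJ35 at 3 against 1.5 months (log2 fold change -0.95, adjusted p = 0.957), TRAJ23 at 5 against 1.5 months (-0.48, 0.952), TRAJ43 at 7 against 1.5 months (0.61, 0.855) and TRAJ30 at 7 against 3 months (-0.43, 0.890). The value for TRAJ35 rested on 1.5 months replicate 1 (0.463% of clonotypes), since replicate 2 had 0.185% and 3-month samples ran from 0.0703% to 0.263%. Without that sample it was -0.11, and without 1.5 months replicate 2 it was -1.40. Of 176 TRAV7 rows with TRAJ35, 107 were 1-base J copies, and without them the pair had too few rows to be tested. The value for TRAJ43 was 0.22 without 1.5 months replicate 1 and 1.07 without replicate 2. The pair with TRAJ30 made up 0.689% to 0.858% of clonotypes at 3 months and 0.476% to 0.651% at 7 months, without overlap. It was picked for the smallest p of 37 pairs, so separate ranges add no support. How many other pairs had separate ranges was not counted.

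TRAV7 clonotype number was 1500 and 1282 at 1.5 months, 1021 to 1282 at 3 months, 1054 and 929 at 5 months and 921 to 1203 at 7 months. Means were 1391, 1188.5, 991.5 and 1050.4 for TRAV7, and 7247.5, 6398.75, 5108 and 5643 for the functional clonotypes of all V families, which were also lower at later times. Mean differences from 1.5 months were -202.5, -399.5 and -340.6, with exact permutation p = 0.163, 0.0160 and 0.0144 after correction for 3 comparisons, and 0.489, 0.0920 and 0.0920 after adjustment over 18 tests. The difference at 3 months was -93.5 without 1.5 months replicate 1 and -311.5 without 1.5 months replicate 2. The inverse Simpson index gives the diversity as a number of clones of even size. It was 413 and 462.5 at 1.5 months. All 11 later samples lay lower, between 95.5 (7 months replicate 4) and 306 (3 months replicate 4). For the whole TCRα repertoire the study described a gradual decrease of this index that was not statistically significant. The index was not compared with that of other V families here, so the lower values are not shown to be particular to TRAV7. Mean differences were -236, -217 and -246 (exact permutation p = 0.0204, 0.0396 and 0.0154, adjusted p = 0.0920, 0.142 and 0.0920). None of the 18 tests passed after adjustment. With a minimum of 2 counts per clonotype the differences in number at 5 and 7 months were -355 and -304.6 (exact adjusted p = 0.0230 for both), and both were called. Depth moved with time, since functional counts averaged 568398 at 1.5 months, 705211 at 3 months, 542314 at 5 months and 519687 at 7 months. At equal depth no call changed, but none of the 18 tests had a call to lose. Whether depth played a part was not tested. The study's methods give a single cell number for the sort. The number of cells behind each sample was not used here.

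The share of counts differed from 1.5 months by 0.802, -2.29 and -1.72 percentage points (exact permutation adjusted p = 0.777, 0.511 and 0.604). Single samples moved these values. At 3 months it was 0.487 without 1.5 months replicate 1, at 5 months -3.59 and -0.984 without 5 months replicates 1 and 2, and at 7 months -1.10 without 7 months replicate 5 and -0.897 with the replicate block. For the Gini coefficient, CDR3 length and inserted bases the adjusted p was 0.679 or higher in all comparisons. Sharing by time point did not pass its test. The Jaccard index of TRAV7 CDR3s was 6.71% ± 0.946 over 18 pairs of samples from 1 time point and 6.88% ± 1.23 over 60 pairs from different ones, a difference of -0.173 percentage points (exact permutation p = 0.607).

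**Figure D5:**
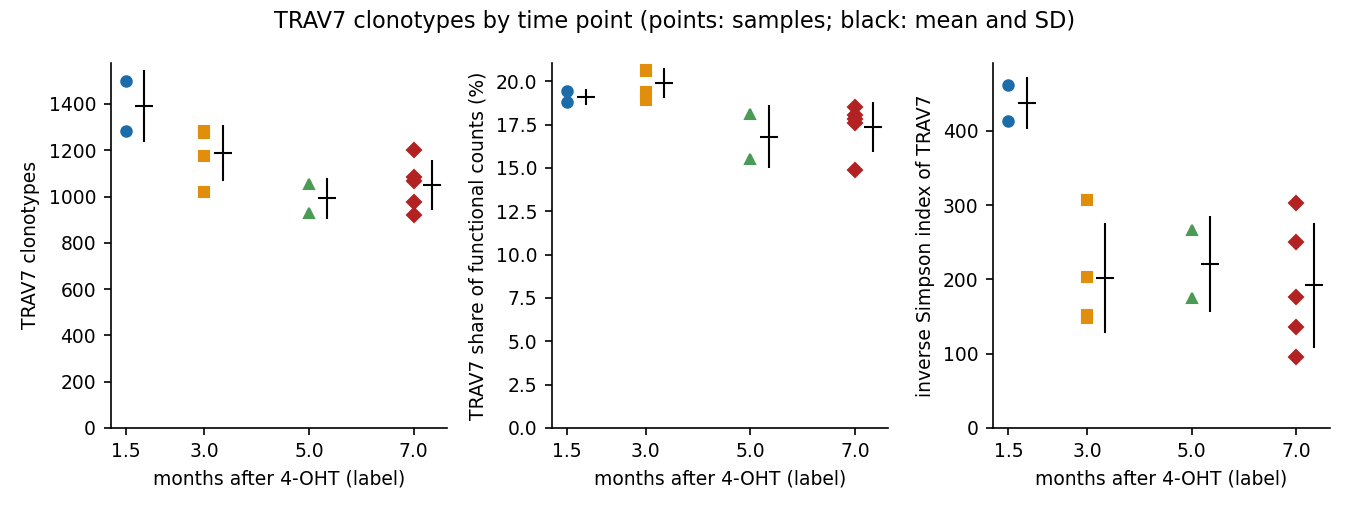
TRAV7 clonotype number, share of functional counts and inverse Simpson index by months after treatment, with points for samples and black marks for the mean and SD of each time point. Both 1.5-month samples (413 and 462.5) lie above the 11 later ones in the inverse Simpson index.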

How the data were processed

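TCRα cDNA of sorted cells was amplified by 5′ RACE and sequenced on a MiSeq, and per the study's methods the authors assembled clonotypes with MiXCR and removed likely errors by frequency with VDJtools. The labels name GRCm38. The deposited tables gave for each clonotype a raw count and its fraction of the sample, and the positions of the V end and J start. Fractions were not used. Rows with a frameshift or stop codon were set apart here. Inserted bases were those between V end and J start, and in 77.1% of TRAV7 rows the germline match ended at the given V end. Members, gene lists and tests were chosen with earlier results of these data known.

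Clonotype numbers per V family, V gene, J gene or pair over all features were tested in R 4.3.3 by the quasi-likelihood F test of edgeR 4.0.16 (TMM, filterByExpr, Benjamini-Hochberg adjustment, threshold 0.05). This model held all 13 samples, or TRAV7 and the rest of each sample with the sample as a block. Time measures were compared with 1.5 months by an exact permutation test over 540540 arrangements, and TRAV7 with other families by all 8192 sign changes of 13 differences, both two-sided. DESeq2 1.42.0 and Python 3.11.15 were also used. Named genes and clonotypes followed a rule: all TRAV7 genes, those under 100 rows by range, up to 5 highest and 5 lowest called J genes, the smallest p per time comparison where none was called, and the clonotypes listed in the report (ties in sample number by mean share of counts). TRAV7-4 and TRAJ15 were named in addition after their values were seen. Alternatives were DESeq2, no filter, library totals only, summed counts, merged copies, equal depth (477052 counts, 10 draws), a minimum of 2 counts, removal of clonotypes 100 times more abundant in another library, a replicate block and each sample left out. Removal of 1-base J copies, the J gene mix and other scalings of summed counts were added after seeing the data. Code was tested on simulated data.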

Additional observations from a re-analysis of the deposited data

Results flagged for a closer look

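In 71 sets of values from 3 or 7 months, 4 had a sample far from the others of its group. Chance was taken to give about 1 in 20, and the number found was near that rate. The TRAV7 share of functional counts in 7 months replicate 5 was 14.9%, with the nearest sample at 17.6%. CAASR-TRAJ12 reached 0.885% in 3 months replicate 1, and the next sample had 0.0845%. CAVSR-TRAJ31 reached 0.189% in 3 months replicate 2, against 0.0229% in the next. CAARG-TRAJ15 was found at 0.0173% in 3 months replicate 4 and had no count in the other 3 samples of that time point.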

How the results depend on the processing

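For the share of TRAV7 clonotypes over time, summed counts gave log2 fold changes of 0.24 (3 against 1.5 months), -0.020 (5 against 1.5 months) and -0.36 (7 against 3 months, edgeR adjusted p = 0.0183). Summed counts gave 0.059 and -0.18 for 3 and 5 against 1.5 months with library totals, and 0.15, -0.11 and, for 7 against 3 months, -0.30 (called) with DESeq2. For 7 against 3 months library totals gave 0.0042, a minimum of 2 counts 0.0023 and the replicate block 0.011, and without 1-base J copies 5 against 1.5 months was -0.0026. In 3 against 1.5 months 1 TRAV7 gene was called with a minimum of 2 counts and 1 with the replicate block (TRAV7-3 in both). DESeq2 called 9 J genes higher in TRAV7. A minimum of 2 counts gave -355 and -304.6 for clonotype number at 5 and 7 months (called), -0.0022 residues for the length difference and -0.017 for TRAV7-1 among functional rows, while the J gene mix gave 0.0367 residues (called). Without 1-base J copies the difference in clonotypes above 0.1% was 0.0374 points.
Leaving out single samples gave -0.019 to 0.045 (family share, 5 against 1.5 months), -0.050 to 0.0067 (7 against 3 months), 0 to 1 TRAV7 gene called in 3 against 1.5 months (TRAV7-4, without 3 months replicate 3), -0.0873 to 0.0017 and -0.0875 to 0.0015 residues (length at 3 and 7 months), 0.0041 to 0.016 residues (length against other families), 0.0071 to 0.028 inserted bases (against other families), -0.0133 to -0.0062 (Gini difference, called without 3 months replicate 3), -0.0562 to 0.0835 points (clonotypes above 0.1%) and -0.345 to 0.0066 points (sharing). TRAV7-5 was called among functional rows without 7 months replicate 5 (0.34) and without the filter (0.36). Calls of TRAJ2, TRAJ28, TRAV7-4 and TRAV7-5 also changed with DESeq2 or without 1-base J copies, as given above. Causes were not tested. The other settings left direction and call of the comparisons and named genes tested in place.
The labels do not say that replicate numbers mark related samples. Deviations of same-numbered samples had a mean correlation of 0.024 (-0.666 to 0.420, 14 pairs), and 1 of 13 samples correlated best with its own number, so the block was not used as the main design. Clonotypes of few counts and genes under 100 rows are limited by depth.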
